A study of Mus musculus with 8 samples.

Results

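The Ms4a family (membrane-spanning 4-domains, subfamily A) was followed in HCA-1 tumors by the rows of the deposited normalized table that carry 10 symbols: Ms4a1, Ms4a4a, Ms4a4b, Ms4a4c, Ms4a4d, Ms4a6b, Ms4a6c, Ms4a6d, Ms4a7 and Ms4a8a. All 10 were found, joined by Ensembl identifier to the 55536 counted genes, and they are 10 of the 19 Ms4a genes in the annotation. HCA-1 is a mouse hepatocellular carcinoma line that was implanted orthotopically in the liver of male C3H mice, labelled as 6 to 8 weeks old. PFSUV-IMQ is imiquimod, a synthetic agonist of the endosomal RNA receptor TLR7, loaded in small unilamellar vesicles that hold no phospholipid. The treated group has 4 tumors, collected 3 h after an intravenous injection of PFSUV-IMQ on day 17 (replicates 1, 2, 3 and 4, labelled IMQNP), and the control group has 4 tumors of mice given saline (replicates 1, 3, 4 and 5). RNA was sequenced from whole tumors of 1 transplanted line, with no genetic difference between the groups, and whether each came from a separate mouse is not given in the labels, so the p-values measure the spread between these tumors. The comparison asks which family members differ in level shortly after the TLR7 agonist reached the tumor-bearing liver.

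MS4A proteins are small tetraspanning membrane proteins that sit beside immune receptors and tune their signaling, trafficking and turnover. Different members mark different leukocytes. Ms4a1 encodes CD20 of B cells, the target of therapeutic B cell depletion, Ms4a4b is expressed by T cells, and most of the Ms4a4 and Ms4a6 genes, Ms4a7 and Ms4a8a are known from monocytes and macrophages. In bulk tumors, fewer cells of a type and less RNA per cell cannot be told apart.

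Total counts were 16883911 to 27687756 per control tumor and 17008151 to 18527613 per PFSUV-IMQ tumor. The mitochondrial share of counts ranged over 1.37% to 4.72% for controls and 1.59% to 6.65% after treatment, where replicate 2 had the top value. That tumor stood apart, since each of the 10 members had its highest level there. Among the treated tumors it also held the highest level of 34.8% of all 15998 tested genes and of 320 of the 362 genes called higher by the rule below, so this trait was not particular to the members. At the other end, 8 of the 10 members had their lowest control level in control replicate 5, against 35.5% of all tested genes. The labelled tissue was checked with 8 liver and hepatocellular carcinoma markers, a list added after the data had been seen. Their summed level was 6255 to 31430 CPM in the control tumors, with the minimum in replicate 5, and 7899 to 31905 CPM in the PFSUV-IMQ tumors, with the maximum in replicate 2 and no other tumor of that group above 10116. On average most of this sum came from genes of liver plasma proteins, so it does not tell carcinoma from other liver tissue. The carcinoma marker Gpc3 was low, with a mean of 1.23 CPM in the control and 1.57 CPM in the PFSUV-IMQ tumors. Of the same list, Afp was low as well (5.46 and 4.79 CPM). The keratin genes Krt8 (686 and 672 CPM) and Krt18 (886 and 908 CPM) were abundant in each group. Within each group, the tumor at the extreme of the family was thus also at an extreme of liver marker content. The highest control sum, 31430 CPM, was near that of PFSUV-IMQ replicate 2. The part of liver marker content in the results was not tested. The main results are therefore also given without PFSUV-IMQ replicate 2.

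All 10 members passed the filter on low counts. The fitted level was higher after PFSUV-IMQ for 9 members and lower for Ms4a7, with a median log2 fold change of 1.13, against -0.03 over all tested genes. Without PFSUV-IMQ replicate 2 these medians were 0.53 and -0.04. Calls required an adjusted p under 0.05 together with a log2 fold change above 1 or below -1, where p came from the quasi-likelihood test of edgeR and was adjusted by Benjamini-Hochberg across the tested genes. By that rule 1 of the 10 members, Ms4a4c, was called higher, against 2.26% of all tested genes. None was called lower, against 0.200% of all tested genes, none had a lower level at an unadjusted p under 0.05, and DESeq2's Wald test also called 0 members lower. At an unadjusted p under 0.05, 6 of the 10 had a higher level, against 8.34% of all tested genes. Without PFSUV-IMQ replicate 2 there were 4 with a higher level and 1, Ms4a7, with a lower one. The share of all tested genes at that p is not given for this fit, nor for lower levels in either fit. No conclusion is therefore drawn from those counts. In 5 members (Ms4a4c, Ms4a4d, Ms4a6b, Ms4a6d and Ms4a8a) every PFSUV-IMQ tumor lay above every control tumor, against 6.00% of all tested genes. In 0 members did every PFSUV-IMQ tumor lie below the controls, against 3.28% of all tested genes.

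**Figure D1:**
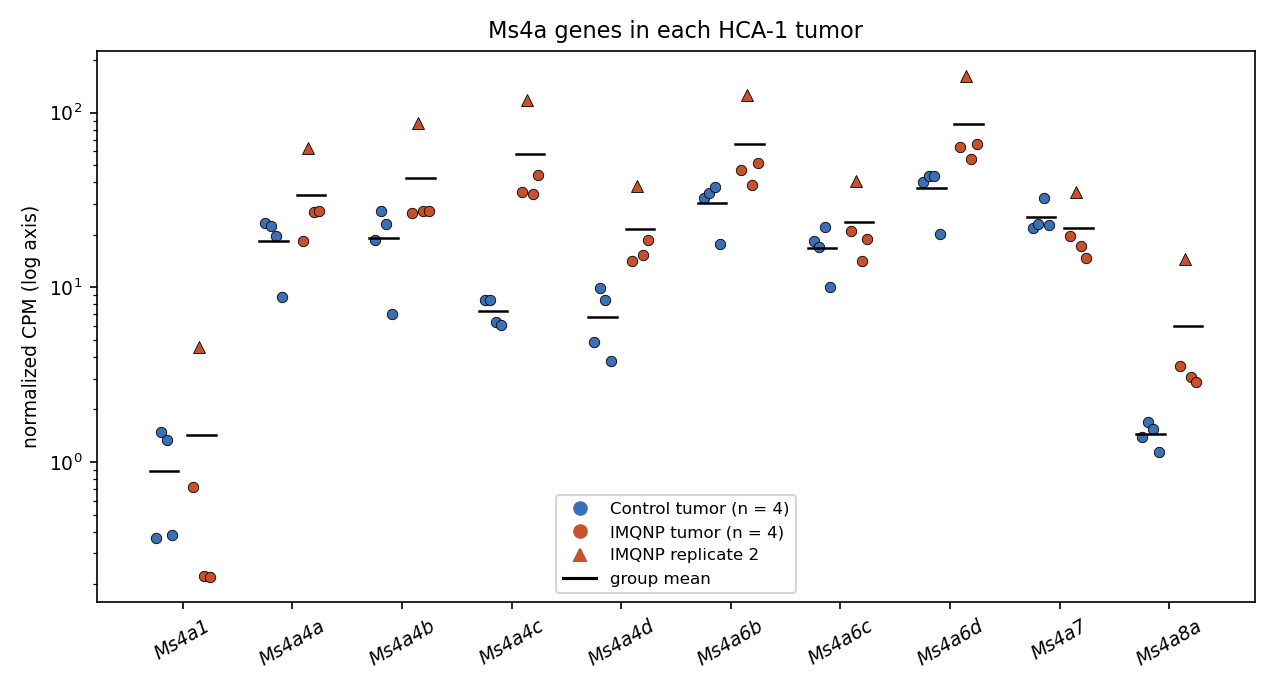
Normalized CPM (log axis) of the 10 Ms4a genes in each of the 4 control (blue) and 4 PFSUV-IMQ (IMQNP, red) tumors, with PFSUV-IMQ replicate 2 as a triangle and each group's mean as a bar. The triangle is the highest point of every gene, and the groups are separate for Ms4a4c, Ms4a4d, Ms4a6b, Ms4a6d and Ms4a8a.

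The Ms4a4 genes differed widely among themselves. Ms4a4c (ENSMUSG00000024675, chromosome 19, 11404770 to 11427246, plus strand, GRCm38), a protein-coding gene known from monocytes and other myeloid cells, rose. Its level was 8.43, 8.43, 6.36 and 6.08 CPM in control replicates 1, 3, 4 and 5, from 112 to 240 counts, and 35, 119, 34.1 and 43.8 CPM in PFSUV-IMQ replicates 1 to 4, from 612 to 1701 counts. The lowest PFSUV-IMQ tumor was far above the highest control, and 3 of the 4 treated tumors lay close together. The mean rose from 7.33 ± 1.28 CPM to 57.9 ± 40.8 CPM (SD, n = 4 each), a 7.91-fold ratio of means, with a log2 fold change of 2.98 (SE 0.43) and an adjusted p of 0.00602. Without PFSUV-IMQ replicate 2 the mean was 37.6 ± 5.37 CPM and the log2 fold change 2.34 (SE 0.20), with an adjusted p of 3.3e-04. It was called in 8 of 8 fits that each left out 1 tumor, with log2 fold changes of 2.34 to 3.17 and adjusted p up to 0.0292.

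Ms4a4d (ENSMUSG00000024678, 11536801 to 11558467, plus strand), a less studied member of the same branch, had 4.84, 9.91, 8.46 and 3.80 CPM in the control tumors and 14.1, 38.2, 15.3 and 18.7 CPM in the PFSUV-IMQ tumors. The groups did not overlap, but the call was missed. The log2 fold change was 1.67 (SE 0.41) with an adjusted p of 0.0736, and 1.22 with an adjusted p of 0.121 without PFSUV-IMQ replicate 2. DESeq2's Wald test, with an adjusted p of 0.00277, and the quasi-likelihood test without the filter on low counts, with 0.0136, placed it past the threshold.

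Ms4a4b (ENSMUSG00000056290, 11443553 to 11467055, plus strand), which tunes T cell activation, had 18.6, 27.5, 23.1 and 7.06 CPM in the control tumors and 26.5, 87.0, 27.5 and 27.5 CPM in the PFSUV-IMQ tumors. The groups overlapped, and 3 treated tumors were level with the highest controls. Its log2 fold change was 1.14 (SE 0.50) with an adjusted p of 0.372, and 0.49 with 0.622 without PFSUV-IMQ replicate 2. Ms4a4a (ENSMUSG00000101389, 11375523 to 11392790, plus strand), a macrophage gene whose product associates with the fungal receptor Dectin-1, had 23.3, 22.5, 19.6 and 8.74 CPM in the control tumors and 18.4, 62.5, 27.1 and 27.3 CPM in the PFSUV-IMQ tumors. These groups overlapped too, with a log2 fold change of 0.87 (SE 0.41) and an adjusted p of 0.432, and of 0.37 with 0.677 without PFSUV-IMQ replicate 2.

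The Ms4a6 genes, which are expressed in monocytes and macrophages, also differed among themselves, with Ms4a6b and Ms4a6d above the control range in every treated tumor and Ms4a6c above it in replicate 2 alone. Ms4a6d (ENSMUSG00000024679, 11586604 to 11604849, minus strand) had 40.3, 43.6, 43.3 and 20.3 CPM in the control tumors and 63.6, 162, 54.1 and 66.2 CPM in the PFSUV-IMQ tumors. Its log2 fold change was 1.23 (SE 0.39) with an adjusted p of 0.169. Ms4a6b (ENSMUSG00000024677, 11516512 to 11531256, plus strand) had 32.4, 34.6, 37.4 and 17.6 CPM in the control tumors and 47.0, 127, 38.6 and 51.6 CPM in the PFSUV-IMQ tumors. Here the gap was narrow, with 38.6 CPM in the lowest treated tumor and 37.4 CPM in the highest control. The log2 fold change was 1.11 (SE 0.39) with an adjusted p of 0.246. Without PFSUV-IMQ replicate 2 the log2 fold changes of Ms4a6d and Ms4a6b were 0.71 and 0.56, with adjusted p of 0.258 and 0.379.

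Ms4a6c (ENSMUSG00000079419, 11469366 to 11482192, plus strand) had 18.5, 16.9, 22.0 and 9.99 CPM in the control tumors and 21, 40.7, 14.1 and 19 CPM in the PFSUV-IMQ tumors. Apart from PFSUV-IMQ replicate 2, the treated tumors lay inside the control range. The log2 fold change was 0.49 (SE 0.35) with an adjusted p of 0.656, and 0.08 without that tumor. Its values are uncertain, because 53.1% of its exon bases overlap BE692007 on the other strand, whose log2 fold change was 0.85 with an adjusted p of 0.460, and the strand setting of the counting is not given in the sources used here. Near copies of a gene can also share reads. Of all words of 50 bases in the longest transcript, 56.9% of those of Ms4a6c occur in another gene. Most of these lie in BE692007, so this share largely repeats the overlap above. Far fewer lie in its near copy Ms4a6b. The share was 8.48% for Ms4a4c (mostly in Ms4a4b), 4.19% for Ms4a4b, 3.28% for Ms4a6b and 2.92% for Ms4a6d.

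Ms4a8a (ENSMUSG00000024730, 11067471 to 11081102, minus strand), described in alternatively activated and tumor-associated macrophages, was low but separated the groups. It had 1.38, 1.69, 1.55 and 1.14 CPM in the control tumors, from 21 to 48 counts, and 3.53, 14.5, 3.07 and 2.87 CPM in the PFSUV-IMQ tumors, from 52 to 208 counts. The treated tumors other than replicate 2 were tightly grouped. The log2 fold change was 2.04 (SE 0.56) with an adjusted p of 0.108, and 1.11 (SE 0.28) with 0.0948 without replicate 2. DESeq2's Wald test, with an adjusted p of 0.00561, and the quasi-likelihood test without the filter, with 0.0315, placed it past the threshold.

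Ms4a7 (ENSMUSG00000024672, 11321039 to 11336146, minus strand), a marker of tissue and monocyte-derived macrophages, was the member with a lower fitted level. It had 22.0, 23.0, 32.6 and 22.9 CPM in the control tumors and 19.7, 35.2, 17.3 and 14.7 CPM in the PFSUV-IMQ tumors. All treated tumors but replicate 2 were below the lowest control. The log2 fold change was -0.21 (SE 0.28) with an adjusted p of 0.842, and -0.56 (SE 0.20) without replicate 2, with an unadjusted p of 0.0215 and an adjusted p of 0.252. Ms4a1 (ENSMUSG00000024673, 11249675 to 11266241, minus strand), which encodes CD20, rested on few counts. It had 8, 42, 31 and 7 counts in the control tumors, or 0.369, 1.48, 1.33 and 0.38 CPM, and 13, 65, 4 and 4 counts in the PFSUV-IMQ tumors, or 0.717, 4.54, 0.223 and 0.221 CPM. The last 2 levels are close to the 3-count floor, which was 0.105 to 0.210 CPM over the 8 tumors and covers counting error only. The sign of its log2 fold change depended on a single tumor, being 0.63 (SE 0.94) with all tumors and -1.22 (SE 0.69) without PFSUV-IMQ replicate 2, with adjusted p of 0.864 and 0.482.

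**Figure D2:**
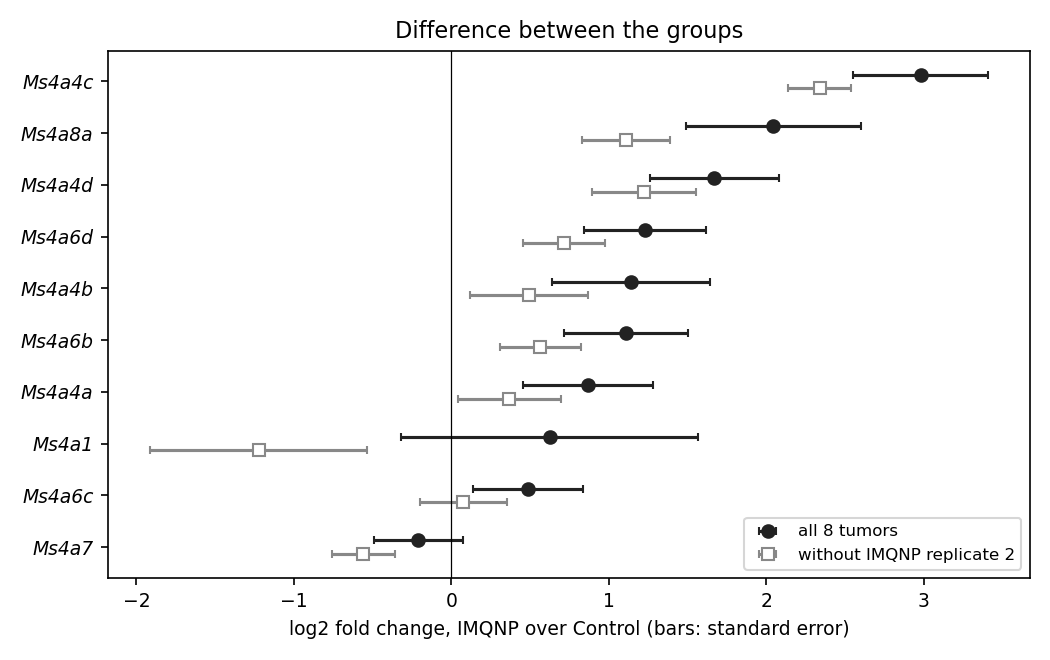
Log2 fold change of each Ms4a gene, PFSUV-IMQ (IMQNP) over control, with all 8 tumors and without PFSUV-IMQ replicate 2, with bars for the standard error. Ms4a4c has the highest value in both fits, 2.98 and 2.34, and Ms4a1 changes sign.

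Levels between genes were compared as mean CPM per kb of exon. In the control tumors Ms4a4a (22.2) and Ms4a6d (21.2) were the most abundant and their ranges over tumors overlapped. They were followed by Ms4a6c (8.22), Ms4a6b (6.81), Ms4a7 (5.64), Ms4a4d (4.46) and Ms4a4c (4.18), of which each overlapped its neighbour in this order. Ms4a4b (2.17), Ms4a8a (0.802) and Ms4a1 (0.144) had the lowest levels per kb. In the PFSUV-IMQ tumors Ms4a4c stood at 33.1 CPM per kb, behind Ms4a6d (49.9) and Ms4a4a (40.5), and so moved from place 7 to place 3 by mean level. Its range over those tumors, 19.5 to 67.9, overlapped those of Ms4a4a (22.0 to 74.7) and Ms4a6b (8.60 to 28.3). Ms4a6b (14.7), Ms4a4d (14.3) and Ms4a6c (11.5) came next, above Ms4a7 (4.88), Ms4a4b (4.80), Ms4a8a (3.34) and Ms4a1 (0.230). Without PFSUV-IMQ replicate 2 the level of Ms4a4c was 21.5, still behind Ms4a6d (35.3) and Ms4a4a (29.0). The order depends on the length used, and with the longest transcript in place of all exons the control level of Ms4a4b was 4.01 and its PFSUV-IMQ level 8.87.

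Ratios within a tumor were used to compare members with each other and with markers of the cells that express them, which sets each member on the scale of a second gene or of a marker list. In all, 14 log2 ratios were compared between the groups by an exact two-sided permutation test over all 70 groupings of the tumors, for which 0.0286 is the smallest p possible. Of these, 10 reached that p, with an adjusted p of 0.0400 over the 14, and each kept its direction whichever tumor was left out. With 3 against 4 tumors the smallest p possible is 0.0571, so those repeats could not pass. The 10 differences were 0.862 to 1.11 times as large without PFSUV-IMQ replicate 2 as with all tumors. They are not separate results, because many share a gene or a marker list. Some follow from others, as the ratio of Ms4a6b to Ms4a6d does from the remaining ratios within the Ms4a6 genes.

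Among the paralogs, the log2 ratio of Ms4a4b to Ms4a4c went from 1.18 ± 0.72 in the control tumors to -0.45 ± 0.15 in the PFSUV-IMQ tumors (SD, n = 4 each, exact permutation p = 0.0286). It was lower in every treated tumor than in any control tumor. Ms4a4c also rose relative to Ms4a4d, by 1.13 on the log2 scale. Within the Ms4a6 genes, the log2 ratio of Ms4a6b to Ms4a6c rose by 0.57, from 0.84 ± 0.12 to 1.4 ± 0.20, and that of Ms4a6c to Ms4a6d fell by 0.71. Ms4a6b and Ms4a6d moved closely together, and their log2 ratio fell by 0.15, from -0.26 ± 0.07 to -0.41 ± 0.06. The log2 ratio of Ms4a4a to Ms4a7, both macrophage genes, differed by 1.06 (p = 0.0857 by the exact permutation test, adjusted p = 0.1).

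Against cell type markers, the log2 ratio of Ms4a4c to the mean of 12 monocyte markers was 2.78 higher in the PFSUV-IMQ tumors, from -1.13 ± 0.33 to 1.65 ± 0.51. The log2 ratios to the mean of 14 macrophage markers were higher by 1.56 for Ms4a6d, by 1.42 for Ms4a6b and by 0.85 for Ms4a6c. Such a ratio also rises when the markers fall, and 12 of these 14 had a lower fitted level. Ms4a6c itself had a log2 fold change of 0.49, and 0.08 without PFSUV-IMQ replicate 2. Its counts are uncertain because of the overlap described above. The log2 ratio of Ms4a4b to the mean of 12 T cell markers was higher by 1.2, from 0.95 ± 0.51 to 2.15 ± 0.36, and each of these 5 differences had the smallest p possible. Of the T cell markers 7 had a lower and 5 a higher fitted level, with a median log2 fold change of -0.13. Without PFSUV-IMQ replicate 2 that median was -0.45, while the log2 fold change of Ms4a4b was 0.49 and the difference in its ratio 1.07. Ms4a4a relative to the macrophage markers was 1.22 higher (exact permutation p = 0.0857). Ms4a7 relative to them was 0.16 higher (exact permutation p = 0.286), and Ms4a1 relative to the tested B cell markers 0.11 higher (exact permutation p = 0.771), neither beyond the spread between tumors. These differences were 0.083 and -0.14 without PFSUV-IMQ replicate 2.

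**Figure D3:**
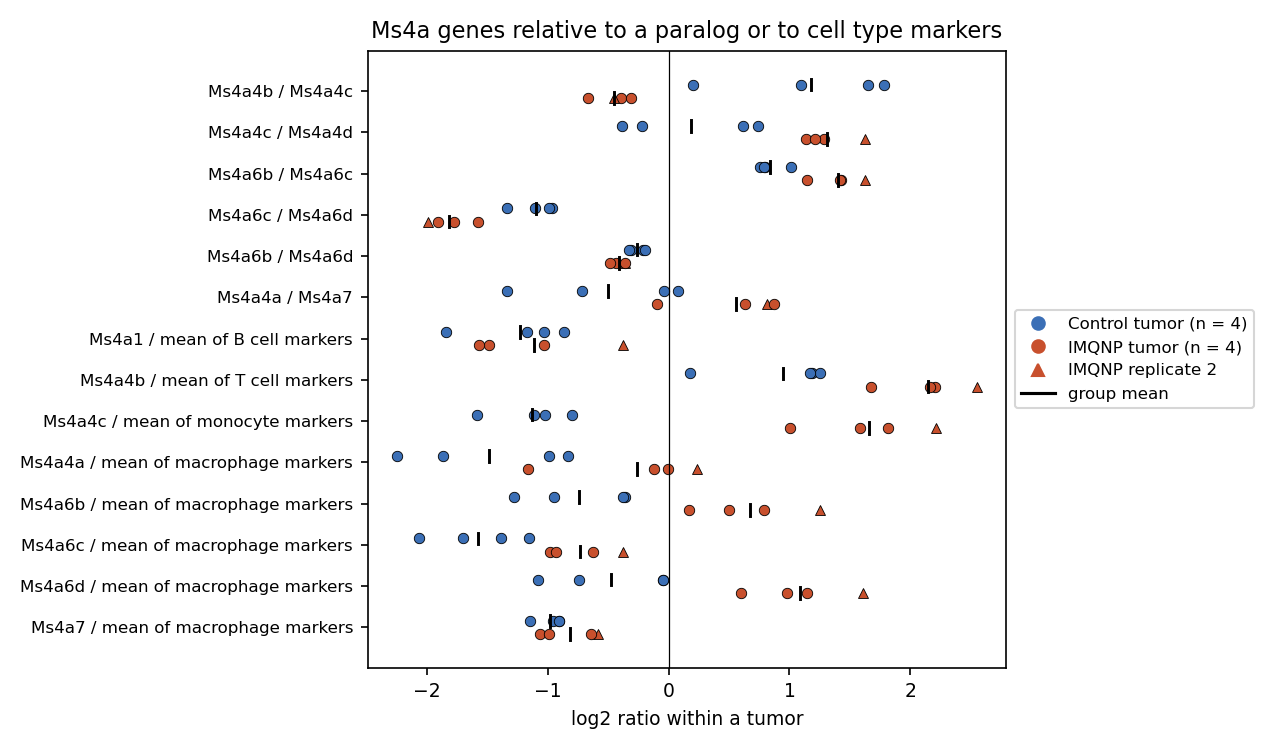
Log2 ratio within each tumor of a Ms4a gene to a paralog or to the mean of a marker list, for 4 control (blue) and 4 PFSUV-IMQ (IMQNP, red) tumors, with PFSUV-IMQ replicate 2 as a triangle and group means as black bars. The log2 ratio of Ms4a4c to monocyte markers is 2.78 higher after PFSUV-IMQ. The groups overlap for each ratio of Ms4a4a, and for Ms4a7 and Ms4a1 relative to cell type markers.

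Few of the markers themselves were called. Of 14 macrophage markers, 12 had a lower fitted level and 1 was called lower, Vsig4, a complement receptor of resident macrophages (log2 fold change -1.62, adjusted p 0.0453). When the tumors were left out 1 at a time, this call held in 1 of 8 fits, that without PFSUV-IMQ replicate 2, and adjusted p reached 0.124 in the others. The list's median log2 fold change was -0.34, and -0.63 without PFSUV-IMQ replicate 2. Their summed level was 1232 to 1815 CPM in the control tumors and 916 to 1768 CPM in the PFSUV-IMQ tumors. Of 12 monocyte markers 1 was called lower, the fractalkine receptor Cx3cr1 (-2.81, adjusted p 0.00243), and none higher. At an unadjusted p under 0.05, 5 had a higher and 2 a lower level, and DESeq2's Wald test called 3 higher and 2 lower. Their median log2 fold change turned from 0.08 with all tumors to -0.35 without PFSUV-IMQ replicate 2, where 2 were called lower. Their summed level was 255 to 452 CPM in the control tumors and 234 to 632 CPM in the PFSUV-IMQ tumors, where no tumor but replicate 2 exceeded 325. None of the 12 T cell or 9 tested B cell markers was called in either direction by edgeR's test, and DESeq2's Wald test called 1 T cell marker lower and 0 B cell markers. In edgeR's test 1 T cell marker had a lower level and 2 B cell markers a higher level at an unadjusted p under 0.05. Summed T cell markers reached 235 CPM and summed B cell markers 78.3 CPM in PFSUV-IMQ replicate 2, against at most 125 and 35.2 CPM in the other treated tumors. No marker of these 4 lists was at 0 in all tumors, and PFSUV-IMQ replicate 2 carried the most of each of these 4 lists among the treated tumors. The part of these markers in the members' levels was not tested.

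Few other genes of the family and its partners were called. Of 14 further names, the Ms4a genes outside the 10 and the related ion channel pair Tmem176a and Tmem176b, 11 were matched and 4 passed the filter, and none of these 4 was called or had an unadjusted p under 0.05 in edgeR's test, nor was any called by DESeq2's Wald test. Ms4a2, the beta chain of the high-affinity IgE receptor of mast cells, had 0.890 ± 0.529 CPM in the control tumors and 0.798 ± 0.424 CPM in the PFSUV-IMQ tumors. Ms4a14 had a log2 fold change of 0.05 (SE 0.40), Tmem176a of 0.06 (SE 0.30) and Tmem176b of 0.23 (SE 0.26). Ms4a13 had 0 counts in all tumors, which allows a level up to the 3-count floor. Of 8 receptors and adaptors that work with MS4A proteins, 1 was called, Cd40, a costimulatory receptor of antigen-presenting cells, with a log2 fold change of 2.75 (SE 0.44) and an adjusted p of 0.0110, and of 2.08 with 9.4e-04 without PFSUV-IMQ replicate 2. For scale, all 20 genes of a list of interferon-stimulated genes were called higher, with a median log2 fold change of 3.61, above the 2.98 of Ms4a4c.

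The family lies in 1 cluster of 678.559 kb on chromosome 19, from 10962293 to 11640851. With 200 kb on either side this region holds 55 annotated genes, of which 25 were tested, 12 of them Ms4a genes. Beside Ms4a4c, 1 gene in it was called, the long intergenic RNA Gm28347 near Ms4a8a, which rose from 0.140 to 5.73 CPM (log2 fold change 5.22, adjusted p 0.0107). It had 1 to 7 counts in the control tumors, with 2 of the 4 under the 3-count floor, so the size of its change is uncertain. Its neighbour AW112010 had 114 CPM in the control tumors and 439 CPM in the PFSUV-IMQ tumors, with a log2 fold change of 1.95 and an adjusted p of 0.105. The median log2 fold change was 0.99 over the 12 Ms4a genes and 0.69 over the 13 others, and 0.43 and 0.18 without PFSUV-IMQ replicate 2. Called and uncalled genes lay side by side, with Ms4a4c between Ms4a4a and Ms4a4b.

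**Figure D4:**
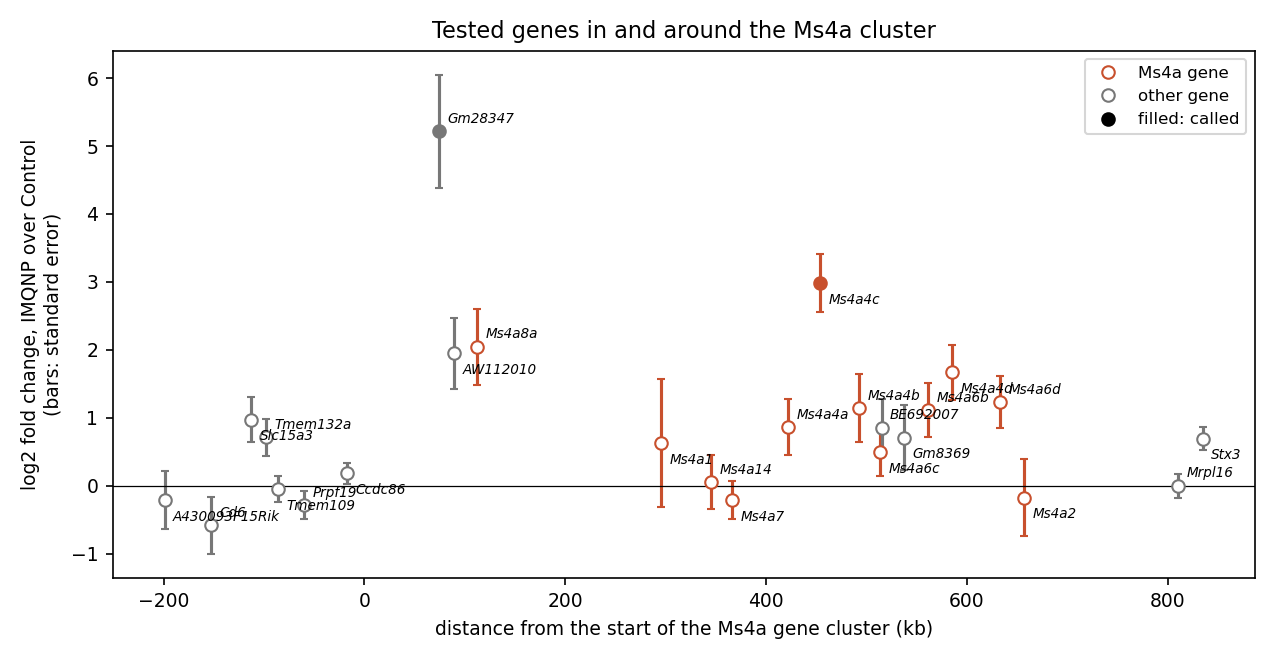
Log2 fold change (PFSUV-IMQ, IMQNP, over control) of the 25 tested genes in and around the Ms4a cluster against distance from its start in kb, with bars for the standard error, Ms4a genes in red and called genes filled. Ms4a4c and Gm28347 are the 2 filled points, at 2.98 and 5.22.

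Ms4a4b and Ms4a4c are near copies, identical at 91.7% of aligned coding bases, and Ms4a6b and Ms4a6c at 85.4%. The log2 ratio within each pair differed between the groups, although of these genes only Ms4a4c was called and the counts of Ms4a6c are uncertain. The 250 bases before their RefSeq starts (GRCm38.p6) are shown, each 5′ to 3′ on the plus strand. Capitals mark the longest run that both members of a pair share. The windows are chr19:11443308-11443557 for Ms4a4b, chr19:11407411-11407660 for Ms4a4c, chr19:11518309-11518558 for Ms4a6b and chr19:11469118-11469367 for Ms4a6c. The RefSeq starts of Ms4a4c and Ms4a6b lie inside the longer gene spans given above.
Ms4a4b: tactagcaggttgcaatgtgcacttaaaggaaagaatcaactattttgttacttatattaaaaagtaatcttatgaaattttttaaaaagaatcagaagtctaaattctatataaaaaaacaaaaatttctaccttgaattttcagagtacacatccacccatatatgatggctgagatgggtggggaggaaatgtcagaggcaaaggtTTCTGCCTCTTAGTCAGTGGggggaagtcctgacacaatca
Ms4a4c: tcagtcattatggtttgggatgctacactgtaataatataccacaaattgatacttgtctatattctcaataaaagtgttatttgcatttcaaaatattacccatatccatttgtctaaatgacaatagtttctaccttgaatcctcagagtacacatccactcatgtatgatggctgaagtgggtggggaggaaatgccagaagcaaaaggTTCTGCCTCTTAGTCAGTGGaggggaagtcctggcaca
Ms4a6b: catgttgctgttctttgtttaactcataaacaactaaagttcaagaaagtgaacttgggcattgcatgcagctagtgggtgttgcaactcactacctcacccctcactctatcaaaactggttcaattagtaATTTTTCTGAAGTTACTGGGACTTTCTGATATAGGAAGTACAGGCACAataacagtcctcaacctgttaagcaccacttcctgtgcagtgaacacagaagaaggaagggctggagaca
Ms4a6c: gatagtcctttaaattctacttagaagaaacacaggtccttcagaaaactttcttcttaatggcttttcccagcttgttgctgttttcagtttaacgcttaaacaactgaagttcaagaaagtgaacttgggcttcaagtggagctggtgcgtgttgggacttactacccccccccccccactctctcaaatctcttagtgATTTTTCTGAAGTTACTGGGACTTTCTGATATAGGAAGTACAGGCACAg
The shared run is 20 bases in the first pair, within an aligned stretch of 133 bases that is 88.0% identical, and 48 bases in the second, within 180 bases that are 82.2% identical. RefSeq windows were found for 8 of the 10 members, 9 windows in all. The core of the interferon-stimulated response element, searched on both strands as a pair of GAAA separated by any 2 bases, was in 0 of the 9 windows, including that of Ms4a4c, and in 2.98% of 32851 windows of all genes. The gamma-activated site TTCNNNGAA, which reads the same on both strands, was likewise in 0 of the 9 and in 7.02% of all. With shares this low, 0 of 9 windows is not unusual, and near matches were not counted, so no conclusion is drawn from either search. The letters GAGGAA, a core read by the myeloid factor PU.1, were searched on both strands and were in the windows of Ms4a4b, 64 to 59 bases before the start, and of Ms4a4c, 61 to 56 bases before it, and in 23.3% of all.

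For each member the genes most like it were found by the root mean square difference of centred log2 levels over the 8 tumors, among 14683 genes, which is a description of likeness in these tumors. The nearest to Ms4a4c were Oas3, an antiviral nucleotide synthetase (0.189), the transcription factor gene Mxd1 (0.197) and Ifit1bl2, a gene of the interferon-induced Ifit family (0.204). The nearest to Ms4a6b was Ms4a6d (0.118), and Ms4a6d was itself nearest to the sorting nexin gene Snx10 (0.108). The nearest to Ms4a6c were the complement receptor gene C3ar1 (0.112) and the macrophage perforin-like gene Mpeg1 (0.113). Ms4a8a was nearest to the innate receptor gene Tlr2 (0.144), and Ms4a7 to Adap1 (0.0775). The single nearest gene thus differed between these members, but some neighbours were shared. Snx10 was also the second nearest to Ms4a6b (0.141), and Ms4a6b the second nearest to Ms4a6d (0.118).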

How the data were processed

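RNA-seq libraries of 8 tumors were analysed. The authors deposited whole-number counts of reads per gene, and a table of signal values, counts that the authors divided by DESeq2 size factors, used here for symbols and 1 alternative. The methods name TopHat and HTSeq, whereas the submitters' processing notes list Trimmomatic 0.38, HISAT2 2.1.0 and featureCounts 2.0.0, so the aligner is uncertain. The genome build is not given in the sources used here. Gene identifiers are those of GENCODE M21 (GRCm38), used for coordinates.

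Counts were normalized by TMM and filtered by filterByExpr, and groups were compared by the quasi-likelihood test of edgeR 4.0.16 (R 4.3.3) over 15998 genes. CPM are TMM-normalized. SE is the log2 fold change over the square root of F. DESeq2 1.42.0, other scalings, filters, tests, a replicate term and each tumor left out were alternatives. Log2 ratios used CPM plus 0.5, and scipy 1.17.1 gave exact permutation tests. On simulated counts of 15998 genes the fit called 81 of 105 4-fold and 91 of 95 8-fold changes, with 3.37% of calls false. These counts were drawn independently for each gene and tumor, with no tumor set apart as PFSUV-IMQ replicate 2 was. The rates hold for such counts only.

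The members and gene lists were chosen with earlier results of these data known. Named genes are the members, list genes that were called or changed most, the nearest patterns and called genes of the region. AW112010, BE692007, Gm28347, Afp, Krt8 and Krt18 were chosen after their values were seen. A gene that this rule would name is not reported here.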

Additional observations from a re-analysis of the deposited data

Results flagged for a closer look

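In groups of 4 tumors, a highest or lowest tumor was singled out when its gap to the nearest other tumor exceeded 0.829 of the group's range (Dixon's 95% value), which chance gives in about 1 in 20 groups. Of 28 groups checked, 9 met this. PFSUV-IMQ replicate 2 was the high tumor in 6 of them, with 4.54 CPM for Ms4a1, 87.0 for Ms4a4b, 119 for Ms4a4c, 127 for Ms4a6b, 162 for Ms4a6d and 14.5 for Ms4a8a. Control replicate 5 was low for Ms4a6d, at 20.3 CPM. Control replicate 4 was high for Ms4a7, at 32.6 CPM, and for Tmem176a, at 199.96 CPM.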

How the results depend on the processing

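Ms4a4c was called higher under every setting run. Of 169 pairs of a member and a setting, 162 kept direction and side of the threshold, 4 passed it where the reported fit did not (Ms4a4d and Ms4a8a, each without the filter on low counts and by DESeq2's Wald test, which bring the called members to 3) and 3 reversed. Genes called higher numbered 619 by DESeq2's Wald test, 119 by glmTreat and 197 to 375 with 1 tumor left out. Genes called lower numbered 63 without the filter, 133 by DESeq2's Wald test, 1 by glmTreat, 267 with the replicate block and 8 to 38 with 1 tumor left out. The cause was not tested. Member ratios past the threshold were 0 in each fit with 1 tumor left out, where 3 against 4 tumors cannot pass.

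The labels give numbers 1, 3 and 4 in both groups, yet same-numbered tumors did not deviate together, with correlations of 0.307, -0.271 and -0.356. With the replicate block, 6 tumors being informative, the log2 fold change of Ms4a4c was 2.28, still called (adjusted p 0.00371), and values reversed for Ms4a1 (-1.39), Ms4a6c (-0.10), Tmem176a (-0.24) and Tmem176b (-0.012). Without PFSUV-IMQ replicate 2, values reversed for Ms4a1 (-1.22), Tmem176a (-0.23), Tmem176b (-0.050), Cd79a (-0.063) and the ratio of Ms4a1 to B cell markers (-0.14), which was -0.10 without control replicate 5. Tmem176a, near 0 throughout, was -0.018 with upper-quartile factors and -0.020, -0.039 and -0.029 without control replicates 1, 3 and 5. Ms4a2 was 0.18 without control replicate 4 and 0.14 without PFSUV-IMQ replicate 1. The highest values with 1 tumor left out were 1.01 for Ms4a1, 0.35 for Tmem176a, 0.41 for Tmem176b, 1.22 for Cd79a and 0.26 for the ratio of Ms4a1 to B cell markers, and the lowest for Ms4a2 was -0.43. None of these reversed values was called. The replicate block called 3 macrophage and 3 monocyte markers lower, and glmTreat called neither Cd40 (adjusted p 0.0611) nor Vsig4 (0.713). The authors' size factors were an alternative chosen after seeing the data.

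With 4 tumors a group and wide spread in the PFSUV-IMQ group, a member that missed the threshold is not shown to be unchanged. Ms4a1, at 4 to 65 counts a tumor, and Ms4a8a, at 21 to 208, rest on the fewest reads of the 10 members.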

Other observations

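Markers of other leukocytes were counted in the same tumors. Of 10 mast cell and basophil markers, 1 was called higher, Hdc, which makes histamine (log2 fold change 2.22, adjusted p 0.0212 by edgeR's quasi-likelihood test). Its call held in 5 of 8 fits that each left out a tumor and was lost without control replicates 1, 3 or 4 (adjusted p 0.0666, 0.0709 and 0.0528) and by glmTreat (0.162). By comparison, the mast cell member of the Ms4a region, Ms4a2, had a log2 fold change of -0.17. Of 10 dendritic cell markers 0 were called by that test and 1 was called lower by DESeq2's Wald test, 3 had a lower level at an unadjusted p under 0.05, and the median log2 fold change was -0.43, and -0.78 without PFSUV-IMQ replicate 2. Of 8 tested neutrophil markers 0 were called by edgeR's reported fit or DESeq2's Wald test, 2 had a higher level at an unadjusted p under 0.05 in edgeR's test, and the median was 1.07 with all tumors and 0.24 without PFSUV-IMQ replicate 2. Their summed level was 18.9 to 79.8 CPM in the control tumors and 37.4 to 164 CPM in the PFSUV-IMQ tumors, where no tumor but replicate 2 exceeded 62.7. With the replicate block, 1 dendritic cell marker was called lower and 1 neutrophil marker higher.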
